A study of Peromyscus californicus with 17 samples.

Results

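The lung endothelial genes described here are Pecam1, Cdh5, Vwf, Kdr, Tek, Tie1, Cldn5, Aplnr, Prox1 and Lyve1, chosen by name as genes that mark the cells lining blood and lymph vessels. All 10 were found among the 27786 genes of the table. RNAseq had been performed on the lungs of 17 male P. californicus of the IS stock, a monogamous deer mouse, with 1 library per animal. The 6 bonded males (B1 to B6) had lived with a female for about 4 months. The 6 bond-disrupted males (BD1 to BD6) had been paired for the same time and were then taken out of the mating cage, and their lungs were collected 7 days later. The 5 virgin males (V2 to V6) were of similar age and were housed in groups, 3 to a cage by the labels, although the study's text allows smaller groups too. All animals were between 12 and 15 months old, the sources name no transgene or agent, and the same number in different groups marks relatives, which were siblings apart from the cousins V3 and V4.

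Endothelial cells line every vessel, and in the lung they form the dense capillary bed across which gas is exchanged. Their identity rests on junction proteins that hold neighbouring cells together and on receptors for growth factors of the vascular endothelial growth factor (VEGF) and angiopoietin families, which control vessel growth and leak. Alveolar capillaries hold general capillary cells and the large, thin aerocytes, while larger arteries, veins and lymphatics each carry their own markers. In a whole lung, fewer endothelial cells and less RNA per endothelial cell cannot be told apart.

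The unit is FPKM, the fragments per kilobase of transcript and per 1000000 mapped fragments. In the deposited table each column was divided by the length of another gene, which in column 1 was the gene of the preceding row and with every later column moved up by 1 row. As deposited, the highest value of a member over the 17 animals was therefore 15.7 (Aplnr) to 293 (Prox1) times its lowest. With fragments recovered from the values and divided by each gene's own length, the same ratio was 1.81 (Cdh5) to 5.64 (Lyve1). All FPKM given below are per own length. In units of 1000000 fragments, the recovered depth was 15.4 to 34.1 in bonded, 21.9 to 29.7 in bond-disrupted and 19.0 to 22.4 in virgin animals. For this, the commonest product of FPKM and RefSeq length among small RNA genes was taken as 1 fragment. At these depths 9 of the members had at least 637 fragments in every animal, whereas Prox1 had 56 to 203. As for the lung label, 6 genes of alveolar type 2 cells, which make surfactant, summed to 15641 to 33496 FPKM in every animal.

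The members spanned a wide range of levels in the lung. Mean FPKM over the 17 animals was 202.5 for Pecam1, 193 for Cdh5, 159 for Kdr, 119.7 for Tek, 94.5 for Cldn5, 66.6 for Vwf, 59.8 for Aplnr, 55.0 for Lyve1 and 54.3 for Tie1, and 0.719 for Prox1. The order was firm in some places only. Cdh5 exceeded Kdr in 17 of 17 animals and Kdr exceeded Tek in 16, but Pecam1 exceeded Cdh5 in 12, Vwf exceeded Aplnr in 10, and Lyve1 exceeded Tie1 in 8. Between each of these neighbours the ranges over animals overlapped, and Prox1 alone lay below its neighbour Tie1 in every animal with no overlap.

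The junction genes are described first. Pecam1, which encodes the adhesion protein CD31 at endothelial cell borders, ranged from 169.6 through a median of 183 to 223 FPKM in bonded animals and from 143 through 215 to 290.1 in bond-disrupted animals. In the virgins V2 to V6 it stood at 222, 226, 169, 203 and 208. The highest and the lowest animals, BD2 and BD6, were both bond-disrupted, and all groups overlapped.

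Cdh5 encodes VE-cadherin, the main adherens junction protein of vessels. It ranged from 146 through 196 to 238 FPKM in bonded and from 138 through 171 to 216 in bond-disrupted animals. In virgins it was 226, 251, 158, 198 and 208, so that the highest animal was V3 and the lowest was again BD6.

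Cldn5, a claudin of endothelial tight junctions, kept a narrow range of 84.1 to 107 FPKM in bonded animals, with a median of 94.3. In bond-disrupted animals it ran from 45.4 in BD6 through a median of 83.5 to 139 in BD1. Virgins lay at 105, 79.6, 114, 115 and 104. The bond-disrupted range contained every bonded and virgin value.

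The receptors for VEGF and angiopoietins are described next. Kdr, the main signalling receptor for VEGF (VEGFR2), ranged from 114 through 162 to 173 FPKM in bonded and from 102 through 161 to 178 in bond-disrupted animals. Virgins gave 225, 185, 116, 151 and 203, with V2, V3 and V6 above every paired or formerly paired animal and V4 near the bottom. The mean was higher in virgins, at 176 ± 43.1 (SD, n = 5), than in bonded animals, at 151 ± 25.7 (SD, n = 6), a gap smaller than the spread among virgins.

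Tek encodes TIE2, the receptor for angiopoietins. Its bonded values went from 89.4 through 113 to 138 FPKM and its bond-disrupted values from 87.1 through 136 to 177. The virgins measured 126, 129, 77.7, 121 and 125, of which 4 lay close together and V4 stood apart below them.

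Tie1, a receptor related to TIE2 that has no angiopoietin ligand of its own, was the least variable member of this group. It ranged from 45.4 through 54.0 to 65.1 FPKM in bonded and from 33.2 through 54.6 to 59.5 in bond-disrupted animals. In virgins it was 58.9, 65.0, 46.8, 53.6 and 60.3. BD6 was the lowest animal, and the other bond-disrupted animals began at 49.8.

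Vwf encodes von Willebrand factor, a clotting glycoprotein that endothelial cells of larger vessels store for release and that platelets also contain. Its bonded values spread from 36.6 in B3 through 59.9 to 89.0 FPKM in B1. Bond-disrupted animals ran from 52.2 through 59.6 to 108, the last in BD2. Virgins fell into 97.5 and 85.4 in V2 and V6 and 55.1, 67.0 and 54.6 in the remaining animals.

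Aplnr is the receptor for the peptide apelin and marks general capillary cells. Bonded animals lay between 52.1 and 74.0 FPKM, with a median of 67.9. Bond-disrupted animals had a median of 59.7 and a highest value of 70.1, but BD2 stood at 16.2, on 637 fragments. The virgins were at 69.3, 82.2, 33.9, 55.4 and 69.5. BD2 and V4 were the lowest animals of all.

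The lymphatic genes differed from the rest in level or in spread. Lyve1, a hyaluronan receptor of lymphatic endothelium and of some tissue macrophages, ranged from 34.7 through 47.3 to 89.6 FPKM in bonded and from 28.7 through 53.0 to 162 in bond-disrupted animals. Virgins had 62.7, 42.3, 29.9, 39.7 and 30.1. The highest value, in BD1, was followed by 89.6 in B1 and 84.3 in BD2.

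Prox1, the transcription factor that specifies lymphatic endothelium, was measured near 1 FPKM at most. It ranged from 0.367 through 0.737 to 1.02 FPKM in bonded and from 0.410 through 0.773 to 0.927 in bond-disrupted animals, and was 0.830, 0.644, 0.763, 0.544 and 0.817 in virgins. It passed the filter of 1 FPKM in at least 1 animal only through bonded animals. At its fewest fragments, counting error alone amounts to 13.4% of the value, against at most 3.96% for any other member.

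**Figure D1:**
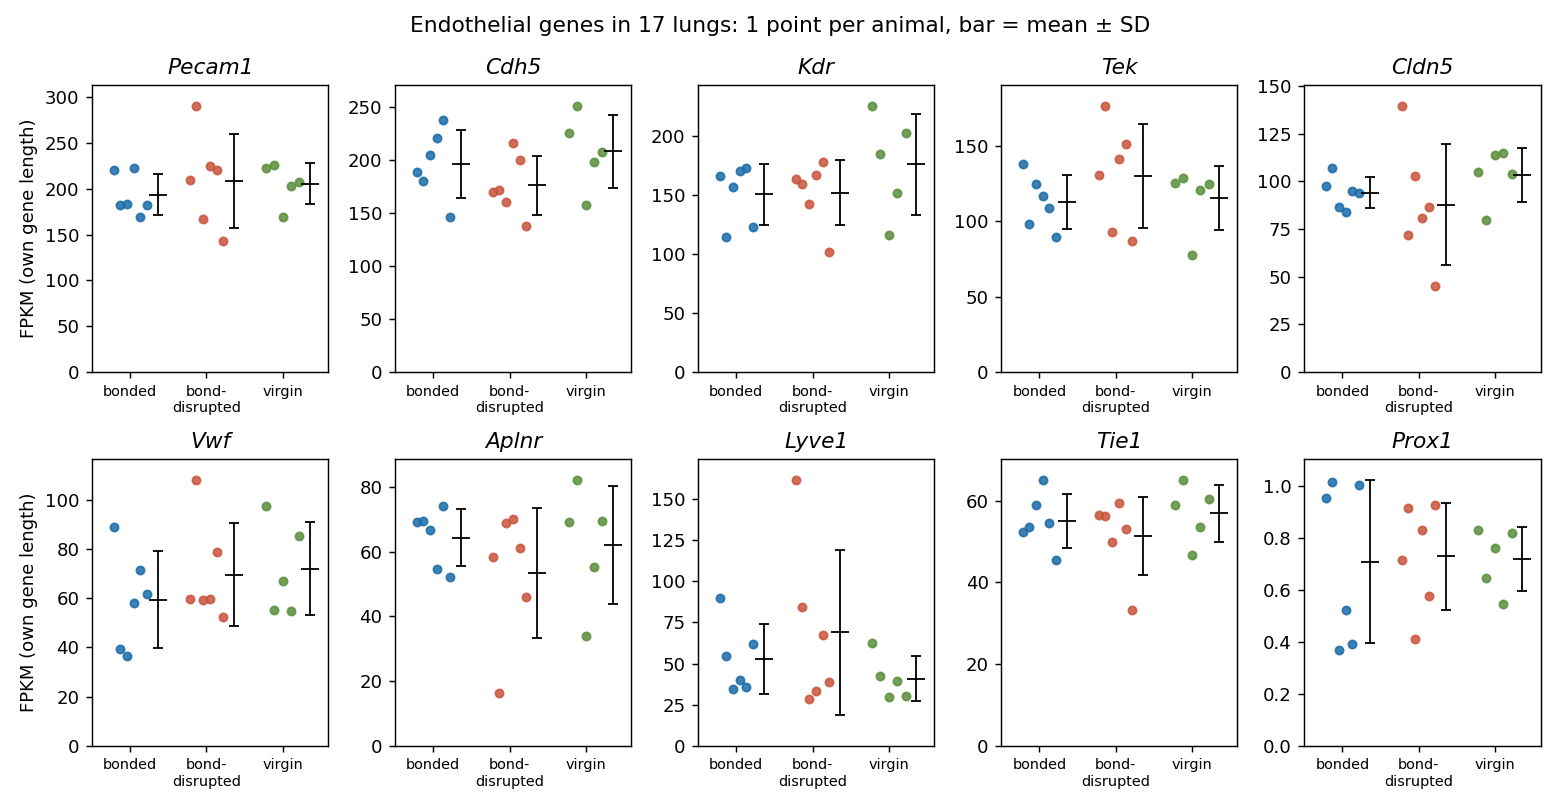
FPKM per own gene length (vertical axes, linear, from 0) of the 10 endothelial genes in bonded, bond-disrupted and virgin animals, with 1 point per animal and the group mean ± SD beside the points. Groups overlap in every panel, and single animals such as BD2 for Aplnr (16.2 FPKM) and BD1 for Lyve1 (162 FPKM) widen the bond-disrupted spread.

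The effect of bond disruption on these genes was examined first, against bonded animals. Of the 10 members, 6 had a higher and 4 a lower fitted mean after disruption. None passed the test, which was out of reach for Prox1 at its low level. The log2 fold change, on the log2(FPKM + 1) scale, ran from −0.39 for Aplnr to 0.25 for Vwf, with a median of 0.02 against 0.01 over all 15407 genes tested. The test was limma on all 17 animals in one fit, and a gene was called where its fold change was 2 or more and its p, adjusted by Benjamini-Hochberg, was under 0.1. It called 0% of all genes, 5.91% of them had an unadjusted p under 0.05, which is 911 genes, and 0 of the members did. A fit by voom to the recovered fragments called 0 genes as well, with 1036 at an unadjusted p under 0.05.

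For Aplnr the log2 difference of −0.39 ± 0.29 (SE, bonded n = 6, bond-disrupted n = 6) had a 95% interval from −1.01 to 0.24, and the adjusted p was 0.876 by limma. It rested on BD2, without which the difference was −0.08, and an additive fit of lengths gave −0.61. For Lyve1 the difference was 0.19 with an interval from −0.58 to 0.97, and it turned to −0.10 without BD1. Vwf differed by 0.25 (interval −0.23 to 0.73) and by 0.11 without BD2.

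The intervals of the junction and receptor genes were narrower. Kdr differed by 0.01 (interval −0.35 to 0.37) and Pecam1 by 0.08 (−0.21 to 0.38), so that changes of 2-fold lay outside their intervals. Leaving out 1 animal moved Kdr to between −0.07 (without B2) and 0.12 (without BD6) and Pecam1 to between −0.02 (without BD2) and 0.18 (without BD6). Cdh5 was lower by a fitted −0.15 (−0.44 to 0.13), Tie1 by −0.11 (−0.38 to 0.16) and Cldn5 by −0.17 (−0.57 to 0.23). Without BD6 the last of these was −0.002, that of Tie1 was 0.01 and that of Cdh5 was −0.09, while Cdh5 without B6 was −0.24 and Cldn5 without BD1 was −0.32. Within siblings, Cdh5 was lower in the bond-disrupted animal of 6 of 6 pairs, by 0.03 to 0.35 on the log2 scale, which was so for 1.34% of 9579 genes, while 4.27% had one direction or the other in all 6. This was noticed after the values were seen and carries no test, and limma with the family number as a block gave −0.15 (interval −0.45 to 0.14, adjusted p = 0.874). No other member had one direction in all 6 pairs. Tek was at 0.17 (−0.20 to 0.55), with 0.08 without BD2 and 0.28 without BD6. The difference of Prox1, 0.03 (−0.21 to 0.27), is compressed by the pseudocount of 1 at its low level, and the voom fit gave it as 0.17. Between 0.367 and 1.02 FPKM a 2-fold change on this scale cannot occur, so Prox1 could not have been called in any comparison.

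Virgins were compared with bonded animals to address life without a mate. Here 8 members had a higher and 2 a lower fitted mean, and 0 were called or had an unadjusted p under 0.05, against 0% called and 3.55% under 0.05 over all genes. By voom, 0 genes were called and 574 had an unadjusted p under 0.05. The log2 fold change ran from −0.33 for Lyve1 (interval −1.14 to 0.48) to 0.30 for Vwf (−0.20 to 0.81), and these became −0.16 without B1 and 0.18 without B3. The difference of Kdr was 0.20 (−0.17 to 0.58), and those of Pecam1 and Cdh5 were 0.09 and 0.08. Leaving out 1 animal moved Kdr to between 0.11 (without V2) and 0.34 (without V4), Pecam1 to between 0.05 (without B5) and 0.16 (without V4), and Cdh5 to between 0.002 (without B6) and 0.18 (without V4). The difference of Pecam1 turned to −0.19 when lengths were removed by an additive fit. All members had an adjusted p of 1 by limma.

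Virgins and bond-disrupted animals, both without a mate at collection, were set against each other last. In this comparison 7 members were higher and 3 lower in virgins by the fitted mean, with 0 called and 0 under an unadjusted p of 0.05, against 0% and 4.19% of all genes. By voom, 0 genes were called and 727 had an unadjusted p under 0.05. Lyve1 had the lowest fitted difference of the members, −0.52 ± 0.38 (SE, virgin n = 5, bond-disrupted n = 6), with an interval from −1.33 to 0.29 and an adjusted p of 0.946 by limma. Without BD1 it was −0.23, and with the family number as a block −0.29. Cldn5 was higher by 0.30 (−0.12 to 0.72), Aplnr by 0.29 (−0.37 to 0.94) and Cdh5 by 0.24 (−0.06 to 0.54). The difference of Aplnr was −0.02 without BD2 and 0.49 without V4. That of Cldn5 was 0.13 without BD6 and 0.45 without BD1, and that of Cdh5 was between 0.17 (without V3) and 0.33 (without V4). This comparison shares its animals with the other comparisons, so the 3 sets of values are not independent.

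**Figure D2:**
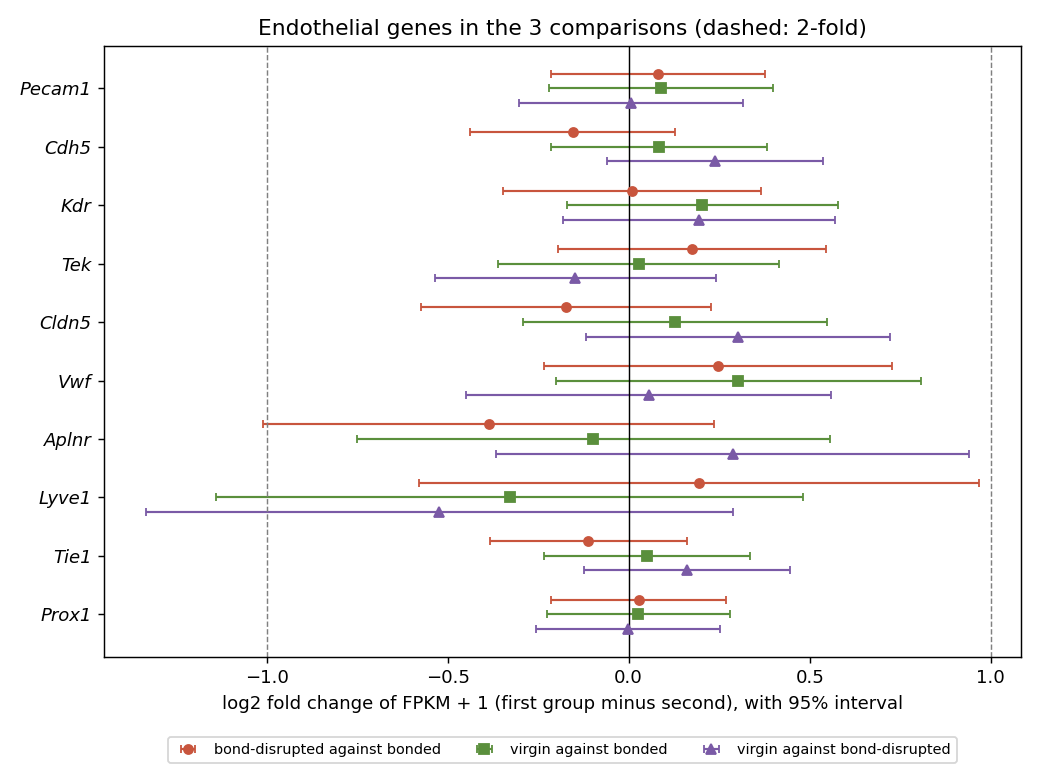
Log2 fold change of FPKM + 1 (horizontal axis, first group minus second) of the 10 endothelial genes in the 3 comparisons, with 95% intervals from limma and dashed lines at a 2-fold change. Every interval includes 0, and intervals reach past a 2-fold change for Lyve1 (to −1.33) and for Aplnr (to −1.01) only. Prox1, at 1.02 FPKM or less in every animal, could not reach the dashed lines.

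Variation between animals of the same group was large for some members. The SD of log2(FPKM + 1) within groups was 0.68 for Lyve1, 0.55 for Aplnr and 0.42 for Vwf, and 97.2%, 94.7% and 90.1% of 9579 genes with a mean of at least 5 FPKM had a smaller one. The median gene had 0.18. Tie1, at 0.23, and Cdh5, at 0.24, varied least among the members above 5 FPKM, and 66.3% and 69.4% of genes varied less than they did. The correlation of log2 level with log2 depth over the 17 animals was between −0.30 (Vwf) and 0.16 (Tek) for all members, given here as a description.

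Several members rose and fell together over animals. Over the 17 animals, 33 of the 45 pairs had a Pearson r above 0, with a median of 0.26, and 8 pairs passed an adjusted p of 0.05 over the 45 pairs (two-sided permutation test, 100000 permutations). All 8 joined the 5 genes Pecam1, Cdh5, Kdr, Tek and Tie1 to one another. As a background, the median r of a member with 9570 other genes was between −0.05 (Prox1) and 0.11 (Cldn5). With group means subtracted 9 pairs passed. The permutations were free over the animals and took no account of relatives, so the p values treat the 17 animals as independent. The count depended on single animals, as 4 pairs passed without BD6, 4 without V4 and 13 without BD2.

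Pecam1 and Tek were the most alike, with r = 0.87 (permutation p = 3e-05, adjusted 0.000675) and Spearman's rho = 0.84 (permutation p = 6e-05). Without BD6 and BD2, the animals farthest from the median of Pecam1, r was 0.81. Among the 9570 other genes, 0.0627% had an r with Pecam1 as high as that of Tek, and the same share held for Tek. In the other 7 pairs the share, read from either gene, ran from 0.0627% (for Tie1, with Cdh5) to 4.88% (for Tek, with Tie1).

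Cdh5 correlated with Tie1 at r = 0.81 (permutation p = 1e-05, the smallest that 100000 permutations can give, adjusted 0.00045) and with rho = 0.81 (permutation p = 1e-04). Its correlation with Kdr was r = 0.80 (permutation p = 0.00012, adjusted 0.00135), with rho = 0.83 (permutation p = 9e-05). Leaving out BD6 and B6 brought these values to 0.74 and 0.68. Both partners are receptors.

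Among the receptors, Kdr and Tie1 reached r = 0.78 (permutation p = 0.00011, adjusted 0.00135) and rho = 0.73 (permutation p = 0.00119). Kdr and Tek reached r = 0.70 (permutation p = 0.00185, adjusted 0.0166) and rho = 0.62 (permutation p = 0.00932). Without BD6 and B2 these were 0.75 and 0.62. Tek and Tie1 had r = 0.61 (permutation p = 0.00831, adjusted 0.0467) and rho = 0.50 (permutation p = 0.0434). Their r fell to 0.44 without V4 and BD6, and was 0.74 with group means subtracted (adjusted permutation p = 0.00354).

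Pecam1 also correlated with Tie1 (r = 0.69, permutation p = 0.00321, adjusted 0.0241, rho = 0.71, permutation p = 0.00188) and with Kdr (r = 0.64, permutation p = 0.0052, adjusted 0.0334, rho = 0.64, permutation p = 0.00636). These stood at 0.65 and 0.67 without BD6 and BD2. The junction genes Pecam1 and Cdh5 were only loosely tied, at r = 0.45 (permutation p = 0.071, adjusted 0.213) and rho = 0.56 (permutation p = 0.0206), and Cldn5 passed with none of the other 9.

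Vwf, Aplnr, Prox1 and Lyve1 had no pair that passed by Pearson's r. By Spearman's rho 7 pairs passed, and 1 of them was Cdh5 with Aplnr, at rho = 0.71 (permutation p = 0.00201, adjusted 0.0151) against r = 0.49 (permutation p = 0.0406, adjusted 0.152) and r = 0.51 without BD6 and B6. Kdr with Tek and Tek with Tie1 did not pass by rho. The lowest r of all was −0.41, between Cdh5 and Prox1 (permutation p = 0.103, adjusted 0.257, rho = −0.41, permutation p = 0.1002, r = −0.22 without BD6 and B6). The lymphatic genes Prox1 and Lyve1 had r = 0.39 (permutation p = 0.122, adjusted 0.289) and rho = 0.41 (permutation p = 0.0984), with r = 0.30 without B3 and B5. With the log2 sum of the other lymphatic markers listed below, Prox1 had r = 0.18. Its highest r with any marker list was 0.61 (rho = 0.52), with airway epithelium, followed by 0.53 with cardiac muscle. These values with lists are a description with no test.

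**Figure D3:**
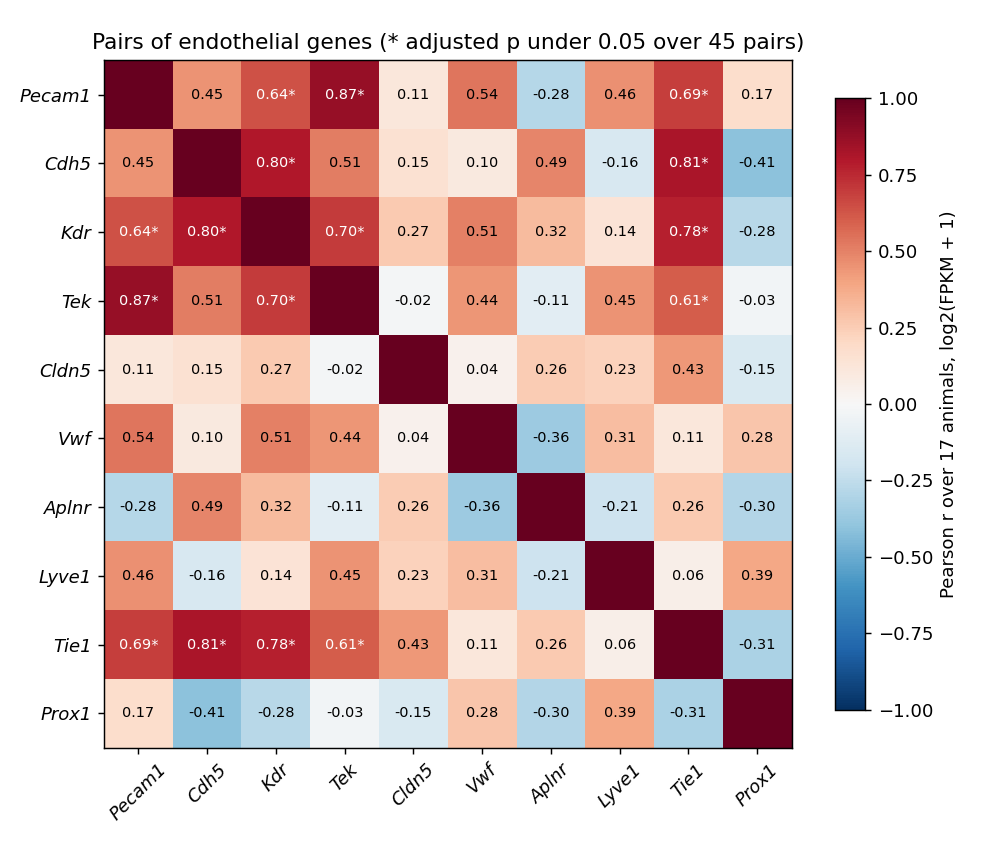
Pearson r over 17 animals of log2(FPKM + 1) for each pair of endothelial genes (both axes, ordered by mean level), coloured from −1 to 1, with an asterisk at an adjusted p under 0.05 over 45 pairs. The 8 marked pairs all join Pecam1, Cdh5, Kdr, Tek and Tie1, from 0.61 to 0.87.

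Single animals stood apart in these values. BD6 had the lowest value of all 17 animals for 5 of the 10 members, Pecam1, Cdh5, Kdr, Tie1 and Cldn5. Its mean over the members, centred per gene on the log2 scale, was −0.44, followed by −0.27 in V4, whereas V2, BD1 and B1 were highest at 0.27, 0.25 and 0.23. Of 76 further vessel genes with a mean of at least 5 FPKM, BD6 was lowest for 46, which is 60.5%, against 14.2% of all genes of that level. The depth of BD6, 22.8 in units of 1000000 fragments, lay within the range of the other bond-disrupted animals.

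Markers of other cell types moved with BD6 as well. It had the lowest summed level of the 17 animals for pericyte (75.5 FPKM), smooth muscle (382 FPKM) and fibroblast genes (1098 FPKM), where the medians over animals were 127, 854 and 1498. Its alveolar type 2 genes had the highest sum, 33496 FPKM, against a median of 23985. Their part in the low endothelial values was not tested.

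BD2 differed in another way. It had the highest Pecam1, Tek and Vwf of all animals together with the lowest Aplnr, and its general capillary markers summed to 1324 FPKM, the highest of 17, against a median of 653. The same animal had the lowest sums of macrophage (97.8 FPKM, median 227), B and plasma cell (22.3, median 74.7), T cell (10.51, median 28.6) and erythroid genes (2.15, median 9.69). Over all genes of at least 5 FPKM it was lowest for 13.8% and highest for 10.3%. The part of these lists in its endothelial values was not tested.

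V4 was lowest for Tek and low for Kdr and Aplnr, with a vein list at 51.1 FPKM, the lowest of 17. Its pericyte (91.9 FPKM, median 127), fibroblast (1254.5, median 1498), type 1 alveolar (2652, median 3507) and type 2 alveolar sums (18846, median 23985) were among the 3 lowest, and its T cell sum, at 51.2 FPKM against a median of 28.6, was the highest. The part of these lists in its endothelial values was not tested. BD1, highest for Lyve1 and Cldn5, was highest for 20.01% of all genes, and its lymphatic list without Lyve1 and Prox1 stood at 291 FPKM, near the median of 261. Its macrophage list, at 229 FPKM, was also near the median of 227.

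**Figure D4:**
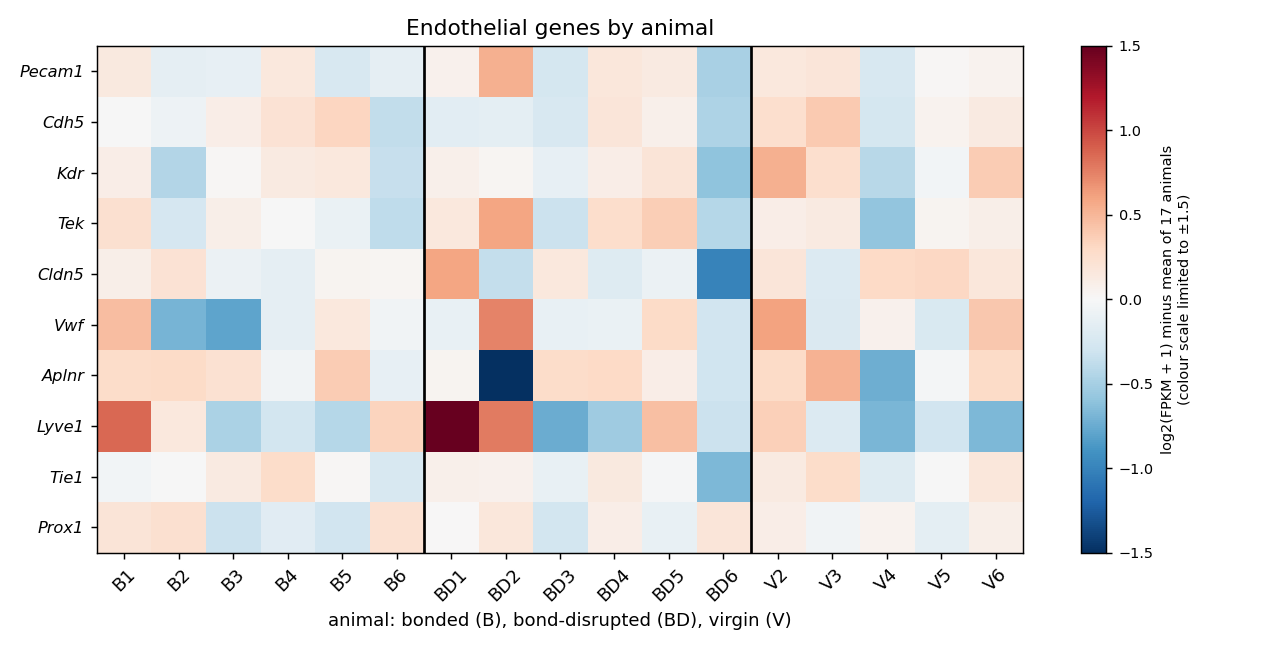
Log2(FPKM + 1) of each endothelial gene minus its mean over 17 animals (colour, limited to ±1.5), with animals along the horizontal axis and black lines between groups. BD6 is low for the first 5 genes and Tie1, BD2 is low for Aplnr, and BD1 is high for Lyve1.

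The distance between relatives was described next. Between the 6 pairs of bonded and bond-disrupted siblings, log2(FPKM + 1) of Cdh5 differed by 0.15 on average, against 0.31 between the 30 pairs with different numbers in these groups. For Prox1 the values were 0.13 and 0.27, for Kdr 0.16 and 0.29, for Lyve1 0.59 and 0.84, and for Tie1 0.17 and 0.25. The gap was smaller for Pecam1, at 0.27 and 0.31, and for Tek, at 0.35 and 0.39. Siblings lay slightly farther apart than the other pairs for Vwf (0.52 and 0.49), Cldn5 (0.43 and 0.41) and Aplnr (0.52 and 0.51). They were closer for 7 of the 10 members, near the share of 57.6% among 9579 genes. These values are a description with no test.

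The wider endothelial programme was described by 10 lists of vessel genes with 98 distinct members outside the 10, of which 86 passed the filter on low values. None was called in any comparison, as for all genes tested. At an unadjusted p under 0.05 there was 1 gene after bond disruption (1.16% of the 86, against 5.91% of all genes), 1 in virgins against bonded animals (1.16% against 3.55%) and 2 in virgins against bond-disrupted animals (2.33% against 4.19%). The median log2 fold changes of the 86 were −0.02, 0.01 and 0.03.

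The single genes under an unadjusted p of 0.05, named after their values were seen, were Gpihbp1, Prx and Angpt2. Gpihbp1, which carries lipoprotein lipase to the capillary surface, had a fitted difference of 0.61 after bond disruption (unadjusted p = 0.0474, adjusted p = 0.844 by limma). Prx, listed with aerocytes, differed by 0.45 in virgins against bonded (unadjusted p = 0.0329, adjusted p = 1 by limma) and by 0.50 against bond-disrupted animals (unadjusted p = 0.0201, adjusted p = 0.946 by limma). Angpt2, an angiopoietin that acts on TIE2, differed by 0.34 in the last comparison (unadjusted p = 0.0464, adjusted p = 0.946 by limma).

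Among angiogenic ligands and receptors, 14 of the 19 listed genes were tested. The highest levels were those of Ramp2, a partner of the adrenomedullin receptor, at 379 ± 67.1 FPKM (SD, n = 17), S1pr1, the sphingosine 1-phosphate receptor that seals vessels, at 96.3 ± 15.7, and the VEGF co-receptor Nrp1 at 59.96 ± 10.9. Ramp2 thus exceeded every member in mean level. Of the Notch and BMP list, with 11 of 12 tested, Eng and Acvrl1, which form a receptor complex for BMP9, stood at 268 ± 46.8 and 202 ± 31.1 FPKM, and Tmem100, which acts downstream of it, at 252 ± 42.4. Their log2 differences lay between −0.02 and 0.15 in all comparisons.

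Endothelial transcription factors, 14 of 15 tested, were led by the flow-responsive Klf2 at 139 ± 43.4 FPKM, Ets1 at 94.8 ± 13.9 and Foxf1, which is needed for lung capillaries, at 72.4 ± 13.9. After bond disruption 11 of the 14 had a lower and 3 a higher fitted mean, against 48.0% of all genes lower, with a median of −0.07 and 0 called. BD6 had the lowest sum of this list, 373 FPKM, and without it 9 were lower, with a median of −0.02. In the pan-endothelial list, all 20 were tested, and the caveolar protein gene Cav1 reached 465.5 ± 74.2 FPKM, the highest of the vessel genes named here. Tspan7 and the sialomucin gene Emcn followed at 126 ± 25.5 and 113 ± 25.8. Of these 20, 14 had a lower fitted mean after bond disruption, where 48.0% of all genes did, with a median of −0.15 and 0 called, the lowest adjusted p being 0.862 by limma. The sums of the list had medians of 1518 FPKM in bonded and 1527 in bond-disrupted animals, with the lowest, 1101, in BD6. Without BD6, 12 of the 20 were lower, with a median of −0.04.

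The adhesion molecules of activated endothelium, 4 of 4 tested, were dominated by the leukocyte ligand Icam1 at 91.0 ± 20.4 FPKM, while Selp and Vcam1 were at 8.99 ± 3.82 and 7.22 ± 3.23. All 4 had lower fitted means in virgins than in either other group, with medians of −0.21 and −0.28 and 0 called, where 47.9% and 48.4% of all genes were lower. The sum was lowest in BD2, at 69.0 FPKM, and highest in BD3, at 185 FPKM, followed by 123.2 FPKM in the virgin V2. BD3 also had the highest macrophage sum, 438 FPKM against a median of 227, whose part in the adhesion values was not tested. Without BD3, 2 of the 4 genes were lower in virgins than in bond-disrupted animals, with a median of −0.04. Against bonded animals 3 or 4 of the 4 were lower whichever animal was left out.

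Markers of both capillary subtypes were detected. Aerocyte genes, 5 of 7 tested, were led by Tbx2 at 119.5 ± 20.1, Ednrb at 104 ± 20.3 and Prx at 38.3 ± 10.8 FPKM. General capillary genes, 7 of 7 tested, were led by Hpgd at 299 ± 98.1, Gpihbp1 at 133 ± 71.9 and Plvap, a protein of vessel fenestrae, at 81.8 ± 60.9. In these 3 the fitted difference after bond disruption was 0.41, 0.61 and 0.57, none of them called, whereas the other 4 were lower, so that the median of the 7 was −0.01. Aplnr, a marker of the same cells, was at −0.39. The bond-disrupted sums of the list ran from 412 in BD6 to 1324 FPKM in BD2, across the bonded range of 470 to 659. Without BD2, 3 of the 7 genes were higher after bond disruption, with a median of −0.07. The differences of Hpgd, Gpihbp1 and Plvap without BD2 are not given.

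Artery genes, 8 of 8 tested, had as their leading members the chemokine gene Cxcl12 at 69.0 ± 26.6, the arterial ephrin Efnb2 at 48.1 ± 9.33 and the gap junction gene Gja5 at 43.2 ± 11.02 FPKM. The vein list, with 4 of 5 tested, was led by Ephb4, the receptor for Efnb2, at 26.5 ± 2.72 and by Nr2f2, a transcription factor of venous identity, at 24.9 ± 3.17, ahead of Vcam1. Lymphatic genes, 6 of 10 tested, were led by Ccl21 at 195 ± 64.1, Pdpn at 33.7 ± 8.22, which type 1 alveolar cells also express, and Nr2f2. No gene of these lists was called, and their medians lay between −0.13 and 0.10 in all comparisons.

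Markers of other cells were read beside these results. In 14 lists, for platelets, pericytes, smooth muscle, fibroblasts, type 1 and type 2 alveolar cells, airway, macrophages, B and T cells, cardiac muscle, erythroid cells, mesothelium and liver, no gene was called either. Smooth muscle genes had lower fitted means after bond disruption for 8 of 8 tested, against 48.0% of all genes, with a median of −0.46, and for 8 of 8 without BD6, with a median of −0.29. An unadjusted p under 0.05 was found for 3 of the 8, against 5.91% of all genes, and their sums ran from 382 to 1225 FPKM against 624.7 to 1445 in bonded animals. Other lists also went one way after bond disruption. Cardiac muscle (7 of 7), platelet (6 of 6) and airway genes (5 of 5) were lower, and type 2 alveolar (6 of 6) and erythroid genes (4 of 4) higher. The remaining lists went both ways. Without B6, 3 of 7 cardiac muscle genes were lower, and without B4, 3 of 6 platelet genes. The surfactant gene Sftpb was the only listed gene with an unadjusted p under 0.01, at 0.00616 (log2 difference 0.43 after bond disruption, adjusted p = 0.804 by limma), and 1.04%, 0.61% and 0.604% of all genes were under this level in the 3 comparisons. Platelet genes, which bear on Vwf and Pecam1, summed to 13.5 to 206 FPKM in bonded, 22.3 to 52.9 in bond-disrupted and 28.0 to 59.99 in virgin animals. Macrophage genes, read beside Lyve1, summed to 157 to 396, 97.8 to 438 and 129 to 274 FPKM in the same groups. Lyve1 had r = −0.42 (rho = −0.50) with the log2 macrophage sum and r = 0.36 (rho = 0.33) with the lymphatic sum. Its highest r with any list was 0.63 (rho = 0.58), with general capillary genes. Only Gdf2, of the Notch and BMP list, and the liver gene Ttr were listed at 0 in any animal. The part of these cells in the members' values was not tested.

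**Figure D5:**
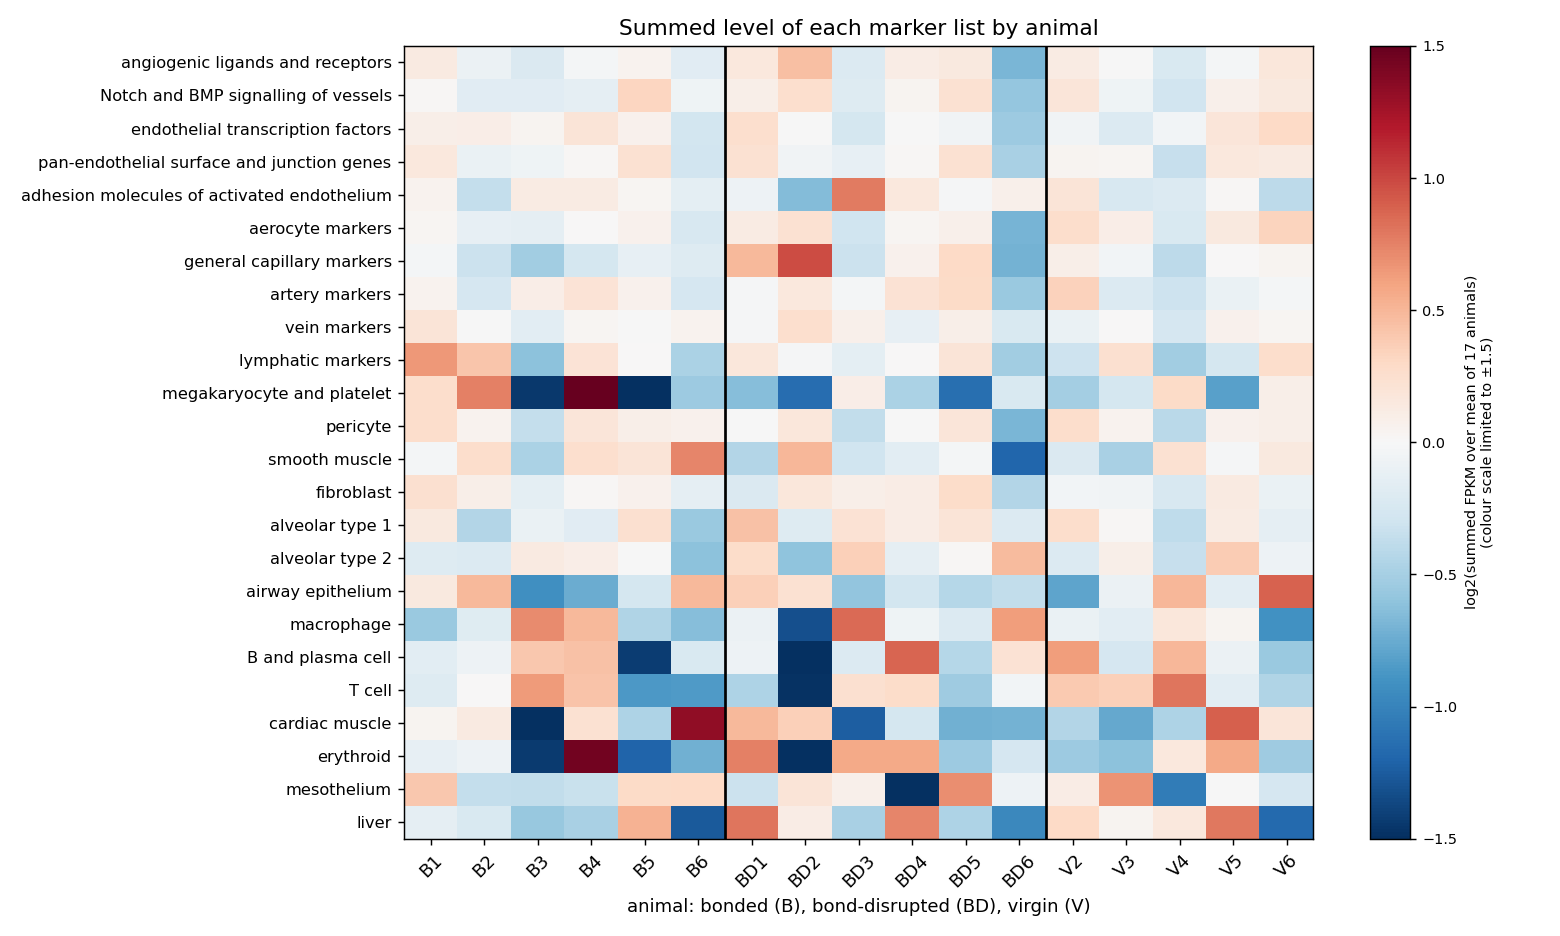
Summed FPKM of each of 24 marker lists (rows) in each animal (columns), as log2 of the sum over its mean in 17 animals (colour, limited to ±1.5). BD6 is low in most vessel, pericyte, smooth muscle and fibroblast lists, and BD2 is low in macrophage, B and plasma cell, T cell and erythroid lists.

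The genes whose pattern over the 17 animals was most like the mean of the members' centred log2 levels were sought among 9570 genes with a mean of at least 5 FPKM. The first 10 were Inpp5a (r = 0.89), Ppm1f (0.89), Pcdh1 (0.89), the non-coding LOC128104415 (0.88), Bicd2 (0.88), Pdgfrb (0.87), Tpcn1 (0.86), Cd34 (0.86), Egflam (0.86) and Myzap (0.86). Of these, Cd34 belongs to the pan-endothelial list and Pdgfrb is the receptor that marks pericytes. Spearman's rho was between 0.77 (Cd34) and 0.85 (Pcdh1), and without BD6 and V4 r lay between 0.69 (Myzap) and 0.83 (LOC128104415). These genes were picked for their likeness, so the values carry no test. Over all 9570 genes the median r was 0.07, and over 76 vessel genes it was 0.57, with 46 of the 76 in the first 10% of the ranking.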

How the data were processed

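Total RNA of 17 lungs was made into directional libraries. The authors deposited FPKM for 27786 genes, 1 column per animal, with 0 columns left over. The submitters' processing notes name FastQC, Trim Galore 0.4.5, STAR 2.7.2, SAMtools 1.5 and featureCounts of Subread 1.5.3, and the genome build and annotation are not given in the sources used here. All gene names match RefSeq symbols, whose lengths of small RNA genes set the depth of each library.

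Lengths were solved as the whole numbers at which FPKM times length times depth gives whole fragments, and 26600 of 27787 were settled. Of the recovered values above 0, 81.4% were whole within 0.005 fragments and 17.0% were at 0.5 of a fragment. 1499 of 1502 small RNA lengths equalled RefSeq, but the same RefSeq lengths had set the depth and the longest length allowed. This match is therefore no independent check. All 17 values were recovered for 26000 genes. FPKM was then recomputed per own length. Depth, 15.4 to 34.1 in units of 1000000 fragments, limits the precision of low values, and intervals of counts cover counting error only.

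Groups came from the labels. limma 3.58.1 (R 4.3.3, two-sided, no trend) was fitted to log2(FPKM + 1) of 15407 genes with at least 1 FPKM in 1 animal or more, with 3 group means and no covariate. A call needed a fold of at least 2 and a p under 0.1 after Benjamini-Hochberg adjustment. Each sample is 1 animal. The recovery and the fit were tested on simulated data with known changes. Correlations used Python 3.11.15, numpy 2.4.6, scipy 1.17.1 and pandas 2.3.3.

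The numbers of animals mark families in the paper. Of 16 pairs of relatives, 8 had deviations from group means that correlated above 0.1 over 9579 genes (median r = 0.09, range −0.41 to 0.46), and the number was used as a block in an alternative. No unrelated pairs were set beside these, so the values cannot be read for kinship.

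The members and the lists were chosen with earlier results of these data known. Genes named are the members, the 3 highest of each vessel list, the 10 most like the members' mean among genes with at least 5 FPKM, the 3 largest called genes of each comparison, and listed genes with an unadjusted p under 0.01. Angpt2, Gdf2 and Ttr fall outside this rule and were named after their values were seen. The counts of list genes without an animal were also added then. Alternatives were the deposited values, lengths removed by an additive fit, other pseudocounts (0.1 and 0.01), filters and scalings, a trend, voom on fragments, only the groups compared, the block, an adjusted p under 0.05 at any fold, Spearman's rho, group means subtracted, and each animal left out. The 24 marker lists are fixed by gene name, and their genes were tested in the same fit as all others.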

Additional observations from a re-analysis of the deposited data

Results flagged for a closer look

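Among 30 groups of values, 10 genes in 3 groups each, the lowest animal stood far from the rest of its group in 2, which is 6.67%; chance alone marks about 1 in 20. Tek in V4 was 77.7 FPKM, on 7767 fragments, while the other virgins lay between 121 and 129. Tie1 in BD6 was 33.2 FPKM, on 2930 fragments, while the other bond-disrupted animals lay between 49.8 and 59.5.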

How the results depend on the processing

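No gene was called in any comparison under either other pseudocount, either other filter on low values, a trend, voom, the 2 groups compared alone, median-ratio or quantile scaling, an adjusted p under 0.05 at any fold, or the replicate block, which changed no call (0 genes in each comparison). With the values as deposited, 40 genes were called after bond disruption, 113 in virgins against bonded and 35 in virgins against bond-disrupted animals, where the lengths of other genes divide the values. With lengths removed by an additive fit the latter 2 counts were 14 and 1 (Rapgef5), and the cause was not tested. Leaving out each animal in turn gave 0 to 1 genes after bond disruption and 0 to 1 in virgins against bonded animals, the 1 in each case being LOC128094431 without B4, and 0 to 0 in the last comparison. The correlated pairs numbered 0 as deposited, 4 under the additive fit and 4 to 13 with an animal left out. Of the 30 fold changes of members, 0 were called under any alternative in which they were tested. Prox1 was not tested under the filter on the mean, nor between virgins and bond-disrupted animals alone. 13 changed sign in at least 1 of the 17 fits without an animal, and 5 did under the additive fit. Kdr after bond disruption was −0.009 under median-ratio and −0.03 under quantile scaling, and Prox1 in virgins against bond-disrupted animals turned to 0.01 to 0.02 under the replicate block, voom and both other pseudocounts. As deposited, 12 of the 30 changed sign. Rapgef5 and LOC128094431 are named after their values were seen. Depth limits Prox1, with 56 to 203 fragments.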
